A study of Mus musculus with 5 samples.

Results

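Mast cells, basophils and eosinophils are granule-bearing effector cells of type 2 immunity. They were followed here through 10 genes, Mcpt8, Prss34, Cpa3, Fcer1a, Ms4a2, Hdc, Epx, Prg2, Siglecf and Il5ra. These were chosen by name from the 54113 named entries of the count table, with earlier results of these data known. RNA had been sequenced from 5 tumours (labelled CRC) of C57BL/6 mice that carried MC-38, a mouse colon adenocarcinoma line. Of the tumours, 3 were from exposure to 30 °C, a thermoneutral temperature for mice, and 2 from exposure to 4 °C, in both cases for 2 weeks. No genetic change or drug is given for either group, and the labels state neither the age nor the sex of these mice. They do not say that each tumour came from a mouse of its own, so the p-values below measure the spread between these 5 tumours alone.

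Mast cells reside in tissues and basophils circulate, and both carry the high-affinity receptor for IgE (FcεRI), whose crosslinking releases histamine and granule proteases. Eosinophils mature in the bone marrow under interleukin-5 and carry granules of strongly basic proteins. All of these cells occur in small numbers in blood, spleen and tumours, and in bulk RNA fewer cells of a type cannot be told apart from less RNA per cell.

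All 10 genes were detected in every tumour and all 10 passed the filter on low counts. By edgeR's quasi-likelihood test, with p-values adjusted over 16133 genes after Benjamini and Hochberg, 0 of the 10 genes were called between 4 °C and 30 °C at an adjusted p under 0.05. The background was the same, with 0% of all genes called. The basophil proteases Mcpt8 and Prss34 and the histamine-forming enzyme Hdc were lower at 4 °C at an unadjusted p under 0.05, a level that 4.17% of all genes passed in that direction (all 3 at adjusted p = 0.69 to 0.70). With the DESeq2 Wald test, 3 of the 10 genes also passed an unadjusted p under 0.05, a level whose share over all genes is not given here. DESeq2 called 0 of the 10 (lowest adjusted p = 0.096), against 111 of the 27334 genes in its fit. It gave no adjusted p for Fcer1a, Ms4a2 and Siglecf, which could therefore not be called. Genes without an adjusted p are still among the 27334, so 111 of 27334 is not the share of the genes that could be called. The granule genes Prg2 and Epx, which had the highest mean levels of the 10 per length of exon, differed by less than the spread between tumours. The median log2 fold change of the 10 genes was −0.80, compared with 0.01 over all genes tested. Of the 10, 8 were lower at 4 °C, a direction shown by 49.3% of all genes. As the 10 were chosen with earlier results known, such comparisons with all genes, here and below, are descriptions and not tests.

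The libraries had 16191708 to 20320525 counts on named genes. Levels are given as CPM (counts normalised to 1000000 counts of a library). Transcripts of 24 pancreatic acinar genes took 26.2% of the counts of 30 °C replicate 2, 0.254% of those of 4 °C replicate 2 and at most 0.00798% of the others. All CPM below are therefore scaled by the TMM factors of edgeR, which ranged from 0.738 in 30 °C replicate 2 to 1.13 in 30 °C replicate 3. On this scale a count of 3, taken as the floor, equals 0.131 to 0.246 CPM. The labelled tissue was checked against 7 epithelial and carcinoma genes. Their summed level was 17.4 to 164 CPM, with Vil1 at 0 to 4 counts and Krt19 at 0 counts in 30 °C replicate 3 and 4 °C replicate 1. Vil1 and Krt19 were thus at or near 0 in several libraries. The other 5 genes were above the floor in every library. Epcam had 7.66 to 15.5 CPM, Krt8 2.93 to 57.8 and Cdh1 2.09 to 33.0. Krt18 (0.795 to 51.2 CPM) and Krt20 (0.478 to 4.26 CPM) had lower minima. The summed level was highest in 30 °C replicate 2 (164 CPM) and 4 °C replicate 2 (88.1 CPM), the libraries with the most acinar transcripts. Whether the epithelial transcripts came from carcinoma or from pancreas was not tested. The samples are called tumours after their labels. For 5 B cell genes the summed level was 967 to 2749 CPM, and for 4 erythroblast genes it was 10225 to 32809 CPM. Tlx1, Nkx2-5 and Nkx2-3, transcription factors of the spleen's mesenchyme, were detected in all 5 libraries, with a summed level of 38.8, 32.5 and 41.3 CPM at 30 °C and 61.2 and 57.1 CPM at 4 °C. All 3 were higher at 4 °C, 2 of them at an unadjusted p under 0.05 and 0 called. From which cells of a sample the transcripts of the 10 genes came was not tested.

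**Figure D1:**
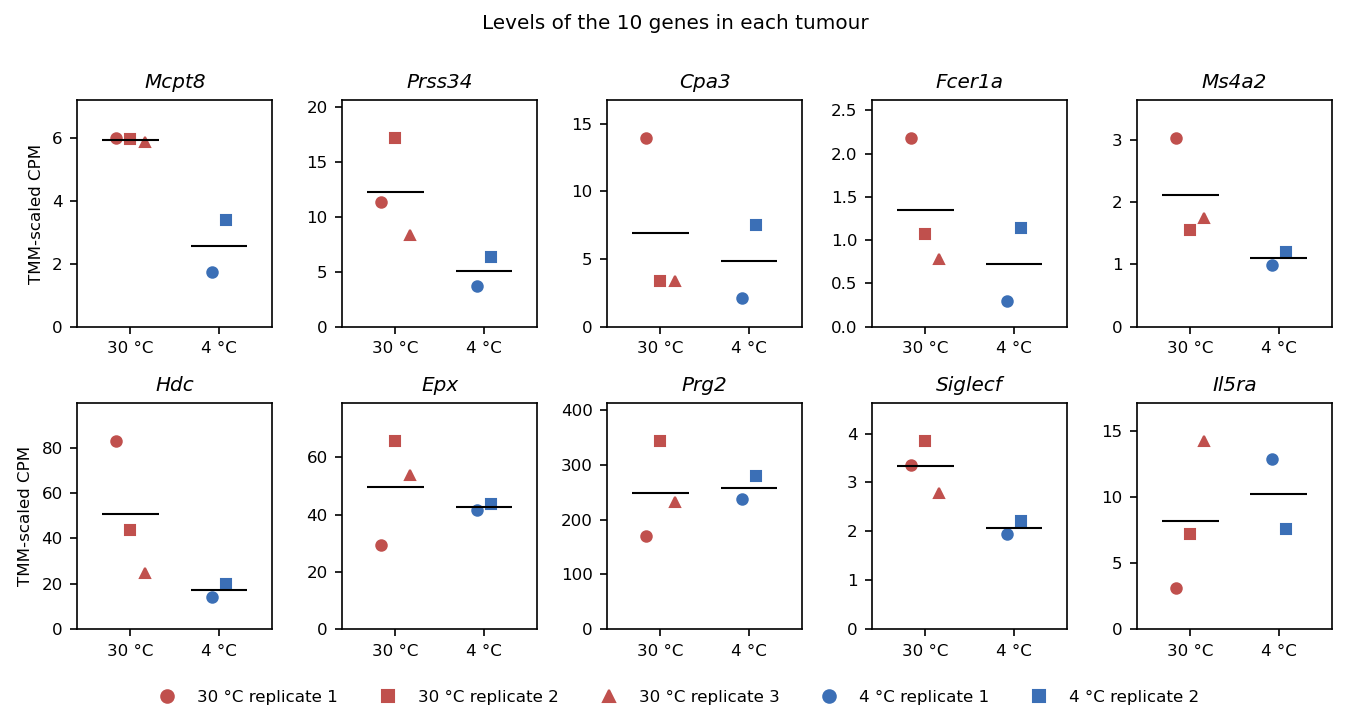
TMM-scaled CPM of the 10 genes (y axis, linear from 0) in the 3 tumours at 30 °C and the 2 at 4 °C. Points are tumours and lines are group means. For Mcpt8, Prss34, Ms4a2, Hdc and Siglecf both tumours at 4 °C lie below all 3 at 30 °C, whereas the groups overlap for the other 5 genes.

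Because longer transcripts collect more reads, levels were compared between genes only as CPM per kilobase of merged exons in the GENCODE M21 annotation. Prg2 encodes major basic protein, the main protein of the eosinophil granule core, and averaged 297 CPM per kb at 30 °C and 308 at 4 °C. Its lowest tumour, at 204 CPM per kb, exceeded the highest tumour of any other member, Epx at 24.05. Epx encodes eosinophil peroxidase, with means of 18.2 and 15.6 CPM per kb. The next means at 30 °C were those of Prss34 (10.1), Hdc (7.93), Mcpt8 (5.97), Cpa3 (4.54), Il5ra (2.29), Fcer1a (1.35), Siglecf (1.19) and Ms4a2 (0.750). From Epx downwards each gene overlapped with its neighbour in this order when the ranges over the 5 tumours were compared. At 4 °C the order of the means changed, as Cpa3 (3.19) and Il5ra (2.87) stood above Hdc (2.68) and Mcpt8 (2.58), and Siglecf (0.744) above Fcer1a (0.719).

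**Figure D2:**
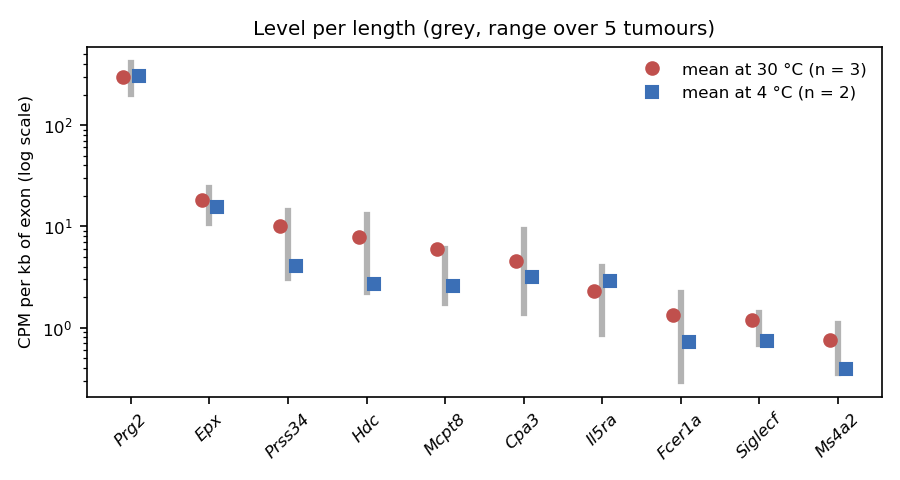
Mean level per length of exon (CPM per kb, log scale) of the 10 genes at 30 °C (circles, n = 3) and 4 °C (squares, n = 2), with the range over the 5 tumours in grey. Prg2 stands apart from the rest, with all tumours at or above 204 CPM per kb.

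Mcpt8 and Prss34 encode serine proteases of the basophil granule and are the most basophil-restricted members. Mcpt8 (ENSMUSG00000022157.8) lies on chromosome 14 of GRCm38 from 56082166 to 56085273, minus strand, in the cluster of mast cell proteases and granzymes, and spans 5 exons. It had 113, 73 and 135 counts in the tumours at 30 °C, or 6.01, 5.98 and 5.89 CPM, and 35 and 57 counts at 4 °C, or 1.74 and 3.41 CPM. On the TMM scale the tumours at 30 °C were almost equal and both tumours at 4 °C lay below them. Without scaling factors the values were 6.46, 4.42 and 6.64 CPM at 30 °C and 1.88 and 3.52 CPM at 4 °C. The scaled means were 5.96 ± 0.0634 CPM (30 °C, SD, n = 3) and 2.57 ± 1.18 (4 °C, SD, n = 2). This is a log2 fold change of −1.21 (SE, the standard error of the fit, 0.38, adjusted p = 0.69 by the edgeR test), or 0.431 times the level at 30 °C. The counting error was wider than this agreement at 30 °C, with an exact 95% Poisson interval of 4.69 to 7.52 CPM for 30 °C replicate 2 and of 2.58 to 4.42 for 4 °C replicate 2. These intervals allow for counting error alone, as reads copied by PCR and not marked by molecular identifiers are not independent.

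Prss34 (ENSMUSG00000056399.2, chromosome 17 from 25298394 to 25300165, plus strand, 5 exons) encodes the basophil tryptase Mcpt11. It stood at 11.3, 17.1 and 8.33 CPM in the tumours at 30 °C and at 3.73 and 6.28 CPM at 4 °C. Again both tumours at 4 °C were below all 3 at 30 °C, with means of 12.3 ± 4.48 CPM (30 °C, SD, n = 3) and 5.004 ± 1.81 (4 °C, SD, n = 2). Its log2 fold change was −1.29 (SE 0.41, adjusted p = 0.69 by the edgeR test), and with single tumours left out it lay between −1.73 and −0.96. The ratio of Mcpt8 to Prss34 counts within a library, which does not depend on scaling, ranged from 0.349 to 0.707 and was lowest in 30 °C replicate 2 and highest in 30 °C replicate 3. Both values at 4 °C, 0.467 and 0.543, lay inside that range. Cd200r3, a receptor that marks basophils, had 0.957 ± 0.268 CPM (30 °C, SD, n = 3) and 0.941 ± 0.277 (4 °C, SD, n = 2). At 8 to 24 counts per library its groups overlapped, with a log2 fold change of −0.05 (SE 0.47). Of the 8 genes of the basophil list, 6 were tested, 3 lower and 3 higher at 4 °C, with 0 called.

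Among the receptor and granule genes that mast cells and basophils share, Ms4a2 encodes the β-chain of FcεRI, which amplifies its signal. It lies on chromosome 19 from 11615523 to 11623719, minus strand (ENSMUSG00000024680.12, 8 merged exons). Its level was 3.03, 1.56 and 1.74 CPM at 30 °C and 0.994 and 1.20 CPM at 4 °C, which are 57, 19, 40, 20 and 20 counts. The groups did not overlap on this scale, with a log2 fold change of −0.95 (SE 0.46, adjusted p = 0.76 by the edgeR test). In CPM without TMM factors the groups overlapped, as 30 °C replicate 2 stood at 1.15 and 4 °C replicate 2 at 1.24.

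The promoters of Mcpt8, Prss34 and Ms4a2 are shown because these are the granule and receptor genes of basophils whose groups did not overlap. GATA factors are known to drive basophil and mast cell genes, and a short GATA core was searched for. Each sequence runs from 250 bases before the RefSeq start to 50 bases within the gene (RefSeq, GRCm38.p6), is written 5′ to 3′ in the direction of the gene, and has the core GATAA, or TTATC for the other strand, in capitals. The windows lie at chr14:56085148-56085447 (minus strand), chr17:25298144-25298443 (plus strand) and chr19:11623670-11623969 (minus strand).
Mcpt8: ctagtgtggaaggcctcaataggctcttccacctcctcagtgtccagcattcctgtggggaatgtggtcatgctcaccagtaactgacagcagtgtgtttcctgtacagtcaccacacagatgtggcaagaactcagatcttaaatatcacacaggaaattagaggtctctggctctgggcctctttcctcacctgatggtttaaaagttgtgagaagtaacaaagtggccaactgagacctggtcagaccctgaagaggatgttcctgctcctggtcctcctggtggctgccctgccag
Prss34: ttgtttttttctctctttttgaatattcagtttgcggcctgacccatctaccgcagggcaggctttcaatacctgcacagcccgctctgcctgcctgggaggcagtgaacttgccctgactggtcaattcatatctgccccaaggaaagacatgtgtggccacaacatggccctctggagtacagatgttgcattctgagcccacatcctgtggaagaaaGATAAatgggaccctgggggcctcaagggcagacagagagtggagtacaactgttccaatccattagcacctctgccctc
Ms4a2: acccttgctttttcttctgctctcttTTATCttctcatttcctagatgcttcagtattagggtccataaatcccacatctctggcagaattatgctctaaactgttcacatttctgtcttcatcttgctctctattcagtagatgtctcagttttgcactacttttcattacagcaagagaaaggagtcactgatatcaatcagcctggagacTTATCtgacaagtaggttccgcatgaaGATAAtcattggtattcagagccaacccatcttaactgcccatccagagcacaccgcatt

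Ms4a2 held 3 copies of the core, at −224, −37 and −10 from the start, and Prss34 held 1 at −30. The Mcpt8 window held 0. RefSeq windows were matched for 9 of the 10 genes, without Prg2. Of these, 6 held the core on either strand (Fcer1a, Cpa3, Il5ra, Siglecf, Prss34 and Ms4a2), compared with 25.4% of 32851 promoter windows of the same length. The RUNX core TGTGGT was found in 4 of the 9 (Fcer1a, Cpa3, Siglecf and Mcpt8), against 16.8% of all windows. The TATA box TATAAA, which shares the letters ATAA with the GATA core, was in 3 (Fcer1a, Cpa3 and Epx; 13.6% of all windows), and the C/EBP motif TTGCNNAA in 1 (Fcer1a; 10.8%). All motifs were searched on both strands, and a match describes letters and not a bound site.

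Fcer1a encodes the IgE-binding α-chain of the receptor (ENSMUSG00000005339.10, chromosome 1 from 173221284 to 173227214, minus strand, 5 exons). It was the gene with the fewest counts, 41, 13 and 18 at 30 °C and 6 and 19 at 4 °C, and it was removed when 10 counts were required in every tumour. In CPM these were 2.18, 1.07 and 0.785 against 0.298 and 1.14, so that 4 °C replicate 2 lay within the range at 30 °C. The exact 95% Poisson interval of 4 °C replicate 1, from 0.109 to 0.649 CPM, was below the value of every other tumour. It overlapped the intervals of 30 °C replicate 2 (0.567 to 1.82 CPM) and 30 °C replicate 3 (0.465 to 1.24 CPM). The log2 fold change of −0.92 (SE 0.74, adjusted p = 0.86 by the edgeR test) was smaller at −0.24 without 4 °C replicate 1 and larger at −2.16 without 4 °C replicate 2.

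Cpa3 encodes carboxypeptidase A3, a protease of the mast cell granule that basophils and blood progenitors also express (ENSMUSG00000001865.2, chromosome 3 from 20215620 to 20242181, minus strand, 12 exons). Its level was 13.9, 3.36 and 3.36 CPM at 30 °C and 2.14 and 7.54 CPM at 4 °C. It was thus high in 30 °C replicate 1 and 4 °C replicate 2 and low in the other 3 tumours, across both temperatures. The log2 fold change was −0.52 (SE 0.84, adjusted p = 0.93 by the edgeR test) and turned to 0.52 without 30 °C replicate 1 and to 0.13 without 4 °C replicate 1. The pancreatic carboxypeptidase gene Cpb1, its neighbour at 6083 bases and named here after its values were seen, had 300360 counts in 30 °C replicate 2. Cpa3 itself had 41 counts in that library, the lowest count of the 5. Its scaled level there, 3.36 CPM, was that of 30 °C replicate 3 and lay above 4 °C replicate 1 (2.14).

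Mast cell proteases were high in the same tumours as Cpa3. Summed over the 9 chymase and tryptase genes of the mast cell list, a sum formed after the values were seen, they reached 70.0, 3.36 and 10.6 CPM in the tumours at 30 °C and 8.54 and 50.3 CPM in those at 4 °C. Their part in the level of Cpa3 and Fcer1a was not tested. Mcpt2, a chymase of mucosal mast cells, had 24.2, 0.492 and 3.71 CPM at 30 °C and 2.43 and 20.9 at 4 °C. The tryptase gene Tpsb2 had 28.6, 0.410 and 1.92 CPM at 30 °C and 2.04 and 13.6 at 4 °C. Their log2 fold changes, 0.29 and −0.41, had standard errors of 1.61 and 1.82. Mcpt4, a chymase of connective tissue mast cells, had 1.64 ± 0.974 CPM (30 °C, SD, n = 3) and 2.96 ± 2.08 (4 °C, SD, n = 2). The proteases share sequence with each other, and how reads common to paralogues were counted is not given in the sources used here. Of the 14 genes of the list, 9 were tested, 5 lower and 4 higher at 4 °C, with 0 called. Kit, the stem cell factor receptor of mast cells and of blood progenitors, had 50.8 ± 6.74 CPM (30 °C, SD, n = 3) and 32.4 ± 8.34 (4 °C, SD, n = 2), a log2 fold change of −0.65 (SE 0.23, adjusted p = 0.71). Kit did not follow the proteases over the tumours. It was highest in 30 °C replicate 2 (58.0 CPM), where the protease sum was lowest (3.36 CPM). In 4 °C replicate 2, where that sum was high (50.3 CPM), Kit was lowest (26.5 CPM). Why they differed was not tested. For Cma2 and Mcpt9 all libraries had 0 counts, and the floor of 3 counts then leaves room for at most 0.246 CPM in a library.

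Hdc encodes histidine decarboxylase, which makes histamine from histidine (ENSMUSG00000027360.5, chromosome 2 from 126593667 to 126619299, minus strand, 12 exons). Mast cells and basophils use it, and immature myeloid cells do so as well. It had 1563, 536 and 573 counts at 30 °C, or 83.1, 43.9 and 25.0 CPM, and 286 and 334 counts at 4 °C, or 14.2 and 19.99 CPM. Both tumours at 4 °C were below all 3 at 30 °C, and 30 °C replicate 1 stood highest. The means were 50.7 ± 29.6 CPM (30 °C, SD, n = 3) and 17.1 ± 4.09 (4 °C, SD, n = 2). The log2 fold change of −1.57 (SE 0.52, adjusted p = 0.70 by the edgeR test) was the largest of the 10 genes, and without 30 °C replicate 1 it was −1.01. Genes of early neutrophils, Mpo, Elane, Prtn3 and Ctsg, were likewise highest in 30 °C replicate 1 and lowest in 4 °C replicate 1, with a summed level of 1609, 947 and 238 CPM at 30 °C and 182 and 343 CPM at 4 °C. All 4 were lower at 4 °C (median log2 fold change −1.89, 0 called), though 4 °C replicate 2 lay above 30 °C replicate 3. The sum of 5 genes of later neutrophils ran from 2615 to 11031 CPM at 30 °C and from 2267 to 3610 CPM at 4 °C. The part of these cells in the level of Hdc was not tested. The ratio of Hdc to Cpa3 counts ranged from 2.65 in 4 °C replicate 2 to 13.1 in 30 °C replicate 2.

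**Figure D3:**
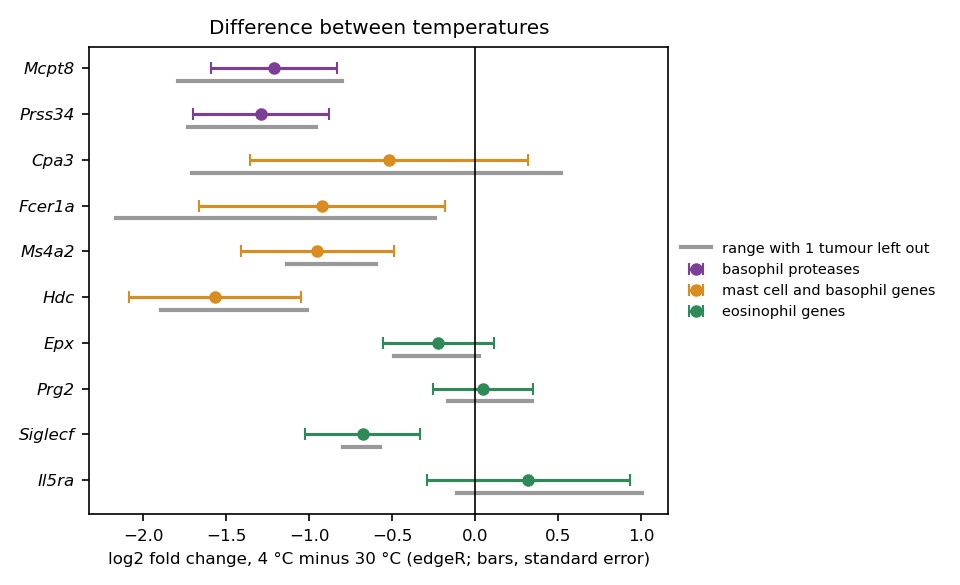
Log2 fold change between 4 °C and 30 °C of the 10 genes from the edgeR fit, with its standard error, and in grey the range with 1 tumour left out at a time. Mcpt8, Prss34, Fcer1a, Ms4a2, Hdc and Siglecf stay below 0 throughout, whereas Cpa3, Epx, Prg2 and Il5ra cross it.

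The eosinophil granule genes did not differ beyond the spread. Prg2 (ENSMUSG00000027073.5, chromosome 2 from 84980461 to 84983632, plus strand, 6 exons) had 3217, 4198 and 5329 counts at 30 °C and 4772 and 4662 at 4 °C. Scaled, these were 171, 344 and 232 CPM against 237 and 279 CPM, with both tumours at 4 °C inside the range at 30 °C. The means of 249 ± 87.8 CPM (30 °C, SD, n = 3) and 258 ± 29.6 (4 °C, SD, n = 2) gave a log2 fold change of 0.05 (SE 0.30, adjusted p = 0.98 by the edgeR test). For Epx (ENSMUSG00000052234.2, chromosome 11 from 87864000 to 87875536, minus strand, 14 exons), the values were 29.5, 65.8 and 54.0 CPM at 30 °C and 41.7 and 43.7 CPM at 4 °C. Its log2 fold change was −0.22 (SE 0.34, adjusted p = 0.92). Both genes were lowest in 30 °C replicate 1 and highest in 30 °C replicate 2, though without scaling factors Epx was highest in 30 °C replicate 3 and Prg2 in 4 °C replicate 2. With single tumours left out, the log2 fold change of Prg2 lay between −0.16 and 0.35 and that of Epx between −0.49 and 0.023. The ratio of Epx to Prg2 counts stayed between 0.157 and 0.232 over the 5 libraries. No other of the 10 ratios computed between genes had so small a spread, its highest value being 1.48 times its lowest. Counting error widens ratios of genes with few counts, such as Fcer1a (6 to 41 counts), whereas Epx and Prg2 had at least 555 counts per library.

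Among further eosinophil genes, Ccr3 and Prg3 were lowest in 30 °C replicate 1 too. Ccr3, the eotaxin receptor that brings eosinophils into tissues, had 14.3 CPM in 30 °C replicate 1, 52.7 and 58.0 in the other 2 at 30 °C, and 52.0 and 72.0 at 4 °C. Prg3, a paralogue of Prg2 that lies 4583 bases from it and is named as an eosinophil marker, had 10.1, 24.3 and 19.5 CPM at 30 °C and 24.2 and 31.4 at 4 °C. Ear2, a ribonuclease gene of eosinophils and monocytes with close paralogues, had 58.7 ± 3.97 CPM (30 °C, SD, n = 3) and 57.5 ± 14.8 (4 °C, SD, n = 2). Of the 9 genes of the eosinophil list, 8 were tested, 4 lower and 4 higher at 4 °C, with 0 called and a median log2 fold change of −0.01. The smallest p-values belonged to the transcription factors Gata1 (log2 fold change −0.74, SE 0.32, adjusted p = 0.74), which red cell precursors also express, and Cebpe (−1.08, SE 0.54, adjusted p = 0.77), which neutrophils also express. Cebpe had 53.2, 31.2 and 14.4 CPM at 30 °C and 12.4 and 18.8 at 4 °C, the order of tumours seen in the early neutrophil genes.

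Siglecf encodes an inhibitory sialic acid receptor of eosinophils, found also on alveolar macrophages (ENSMUSG00000039013.16, chromosome 7 from 43351341 to 43359531, plus strand, 9 merged exons). It stood at 3.35, 3.85 and 2.79 CPM at 30 °C and at 1.94 and 2.21 CPM at 4 °C, from 37 to 64 counts per library. Both tumours at 4 °C lay below all 3 at 30 °C, with a log2 fold change of −0.68 (SE 0.35, adjusted p = 0.78 by the edgeR test) that stayed between −0.79 and −0.57 when single tumours were left out. In 30 °C replicate 1, where Epx was lowest, Siglecf was not, and the ratio of their counts was 0.114 there against 0.0465 to 0.0585 elsewhere.

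Il5ra encodes the α-chain of the interleukin-5 receptor, through which eosinophils and B-1 cells receive interleukin-5 (ENSMUSG00000005364.11, chromosome 6 from 106710357 to 106749037, minus strand, 13 merged exons). It had 58, 88 and 327 counts at 30 °C, or 3.08, 7.21 and 14.3 CPM, and 260 and 127 counts at 4 °C, or 12.9 and 7.60 CPM. The tumours at 4 °C lay within the range at 30 °C, and the log2 fold change was 0.32 (SE 0.61, adjusted p = 0.93 by the edgeR test). It was 1.01 without 30 °C replicate 3, 0.64 without 4 °C replicate 2, −0.07 without 30 °C replicate 1 and −0.11 without 4 °C replicate 1. Its tumours were ordered otherwise than those of Epx, with a ratio of Il5ra to Epx counts between 0.105 in 30 °C replicate 1 and 0.310 in 4 °C replicate 1. The summed level of 5 B cell genes was 967, 1388 and 2408 CPM at 30 °C and 2749 and 2480 CPM at 4 °C, so 30 °C replicate 3 and 4 °C replicate 1 were among the 3 highest tumours in both. The part of B cells in the level of Il5ra was not tested.

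**Figure D4:**
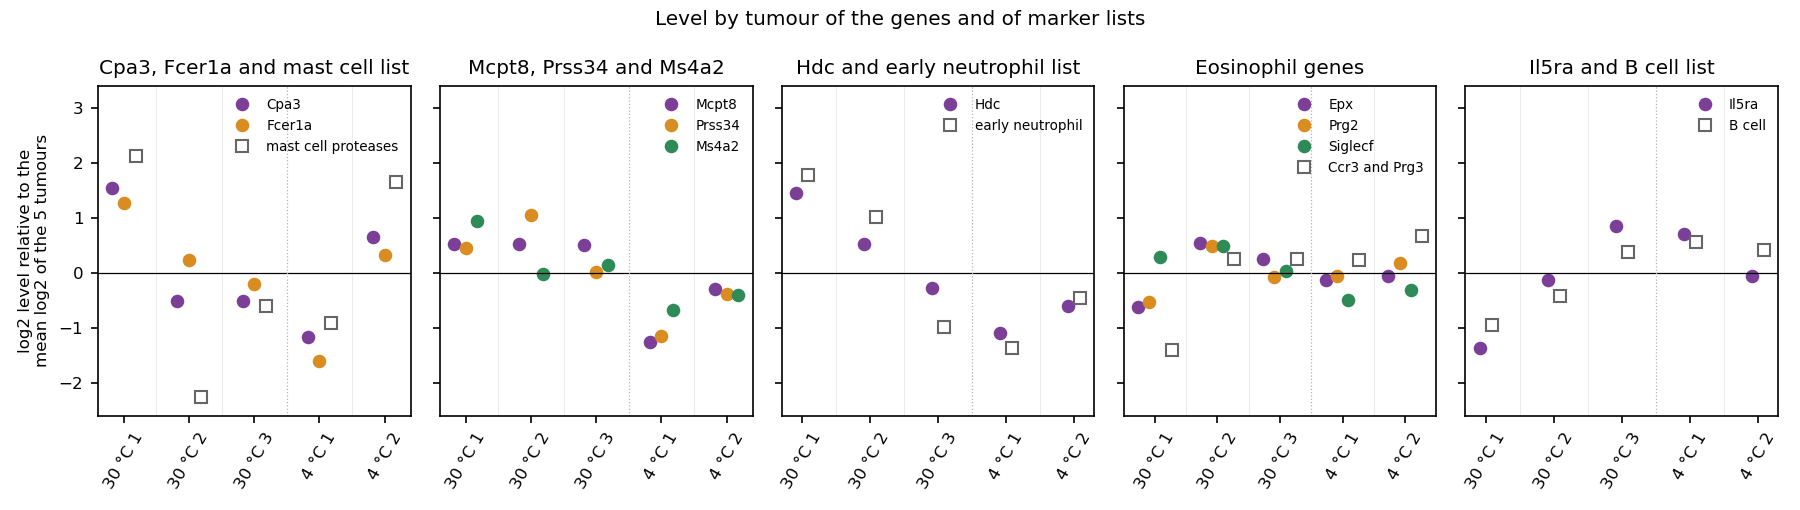
Level of single genes (filled circles) and of summed marker lists (open squares) in each tumour, as log2 relative to the mean log2 level of the 5 tumours. Cpa3 and the mast cell proteases are high in 30 °C replicate 1 and 4 °C replicate 2, Hdc and the early neutrophil list are highest in 30 °C replicate 1, Epx and Prg2 are lowest in 30 °C replicate 1, and Il5ra is lowest there as well.

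Counted over the 10 genes, both tumours at 4 °C lay below all 3 at 30 °C in 5 (Mcpt8, Prss34, Ms4a2, Hdc and Siglecf), and above all 3 in 0. Over all genes tested, 11.0% lay below and 12.2% above in this way. The same 5 genes did so with RLE scaling (11.6% of all genes then) and upper-quartile scaling (9.06%), without 30 °C replicate 2 and its pancreatic transcripts (14.4%), without 30 °C replicate 3 (18.2%) and without 4 °C replicate 1 (29.5%), alternatives chosen after seeing the data. In CPM without scaling factors the count was 4 (5.41% of all genes), without 30 °C replicate 1 it was 6 (17.8%) and without 4 °C replicate 2 it was 7 (24.7%). The highest level was reached in 30 °C replicate 1 by 5 of the 10 genes, in 30 °C replicate 2 by 4 and in 30 °C replicate 3 by 1, and in neither tumour at 4 °C. In CPM without scaling factors it was reached in 30 °C replicate 1 by 5, in 30 °C replicate 2 by 1, in 30 °C replicate 3 by 3 and in 4 °C replicate 2 by 1, Prg2. The lowest level was in 4 °C replicate 1 for 7 genes and in 30 °C replicate 1 for 3 (Epx, Prg2 and Il5ra). The median log2 fold change of the 10 genes was −0.41 without 4 °C replicate 1 and −1.40 without 4 °C replicate 2.

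The ligands and receptors that govern these cells were read from lists of other genes. Of 59 such genes, 45 were tested and 0 were called by edgeR, with 20 lower and 25 higher at 4 °C and a median log2 fold change of 0.07. At an unadjusted p under 0.05, 2 were lower (Kit and Il1rl1), and 1 was higher (Lat), where 4.17% of all genes were lower and 2.58% higher at that level, shares close to those of the list. Il1rl1 encodes ST2, the interleukin-33 receptor of mast cells, basophils and eosinophils and of some T cells. It had 20.8, 21.9 and 16.3 CPM at 30 °C and 8.79 and 10.7 CPM at 4 °C, with no overlap between the groups. Its log2 fold change was −1.02 (SE 0.23, adjusted p = 0.69 by edgeR), and it was the 1 gene of the 59 that the DESeq2 Wald test called (adjusted p = 0.039). Its ligand Il33 stood at 22.4 ± 13.0 CPM (30 °C, SD, n = 3) and 18.7 ± 0.153 (4 °C, SD, n = 2).

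Interleukin-3 and interleukin-5, the main growth factors of basophils and eosinophils, were not detectable at this depth. Il3 had 0 counts throughout, which with the floor of 3 counts means at most 0.246 CPM in a library, as for Il25, and Il5, named outside the rule, had 1 count in 30 °C replicate 3 and 0 in the others. Stem cell factor (Kitl), the growth factor of mast cells, had 41.4 ± 4.36 CPM (30 °C, SD, n = 3) and 50.5 ± 12.4 (4 °C, SD, n = 2). The eotaxin Ccl24, a ligand of Ccr3, had 0.372, 2.05 and 2.01 CPM at 30 °C and 3.28 and 5.51 at 4 °C, from 7 to 92 counts. The tumours at 4 °C were higher, with a log2 fold change of 1.58 (SE 0.69, adjusted p = 0.75 by edgeR). Crlf2, part of the receptor for thymic stromal lymphopoietin, had 39.7 ± 5.27 CPM (30 °C, SD, n = 3) and 47.5 ± 1.74 (4 °C, SD, n = 2), with both tumours at 4 °C above all 3 at 30 °C. Of the 11 genes of this list, 7 were tested, 3 lower and 4 higher at 4 °C, with 0 called.

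Csf2rb, the chain that the receptors for interleukin-3, interleukin-5 and GM-CSF share, had 142, 96.0 and 89.9 CPM at 30 °C and 85.2 and 55.6 CPM at 4 °C. Its log2 fold change was −0.63 (SE 0.29, adjusted p = 0.76 by edgeR), and many myeloid cells express it. Csf2rb2, the mouse paralogue used for interleukin-3 alone, had a log2 fold change of −0.42 (SE 0.26), and reads common to the 2 genes could be split between them. The interleukin-3 receptor α-chain Il3ra had 14.0 ± 4.06 CPM (30 °C, SD, n = 3) and 17.8 ± 8.52 (4 °C, SD, n = 2).

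The genes of the signal behind FcεRI are used by other leukocytes as well. The tyrosine kinases Syk (340 ± 86.7 CPM, SD, n = 3, and 374 ± 103, SD, n = 2) and Lyn (297 ± 45.5, SD, n = 3, and 316 ± 37.2, SD, n = 2) overlapped between the groups, as did the phospholipase Plcg2 (187 ± 41.4, SD, n = 3, and 217 ± 12.3, SD, n = 2). Plcg1, another phospholipase, had a log2 fold change of 0.22 (SE 0.19). Fcer1g encodes the γ-chain that FcεRI shares with other Fc receptors, and was named after its values were seen. The ratio of Fcer1a to Fcer1g counts was 0.00701 to 0.00875 at 30 °C and 0.00308 and 0.00617 at 4 °C. Lat, an adaptor of mast cells and T cells, had 32.9, 32.9 and 35.4 CPM at 30 °C and 51.1 and 63.2 at 4 °C, a log2 fold change of 0.76 (SE 0.17, adjusted p = 0.69 by edgeR). Of the 11 genes of this list, 3 were lower and 8 higher at 4 °C, with 0 called.

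Of the histamine axis beyond Hdc, Hnmt, an enzyme that inactivates histamine, had 2.79 ± 0.716 CPM (30 °C, SD, n = 3) and 2.18 ± 0.212 (4 °C, SD, n = 2). The receptor Hrh2 had 8.15 ± 1.51 CPM (30 °C, SD, n = 3) and 6.52 ± 0.933 (4 °C, SD, n = 2), and Hrh1 had 1.28 ± 0.480 (30 °C, SD, n = 3) and 1.64 ± 0.138 (4 °C, SD, n = 2). Hrh3 had 0 counts in every library. Of the 6 genes, 4 were tested, 2 lower and 2 higher at 4 °C, with 0 called.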

How the data were processed

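RNA of 5 tumours, 3 at 30 °C and 2 at 4 °C, was grouped by the sample titles. The deposited values are counts per gene without normalization. Per the study's methods the authors made these counts with featureCounts on the Gencode vM19 annotation, whereas the submitters' processing notes name fastp, HISAT, RSEM and GRCm38 with no role. The strand setting is not given in the sources used here. Of 54446 entries, 333 without a name (at most 0.0170% of the counts of a library) were left out, and of entries sharing a symbol the one with the highest mean carried it. No column of values was unused.

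Counts were analysed in R 4.3.3 with edgeR 4.0.16 (filterByExpr, TMM, quasi-likelihood F-test with robust estimation, no covariate), with Benjamini-Hochberg adjustment over 16133 genes. The standard error is the log2 fold change divided by the root of F. The study used the Wald test of DESeq2, which was run as an alternative (version 1.42.0). CPM were scaled by TMM. Replicates differed beyond sampling noise (chi-square per degree of freedom 58.1 to 539 between tumours of a group, over genes with at least 20 counts). Positions and exon lengths come from GENCODE M21 (GRCm38). Intervals are exact Poisson at 95%. Methods were tested on simulated counts. No batch is given in the labels.

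The 10 genes and the other lists were chosen with earlier results of these data known. The 10 are all named. Of each other list, the 3 tested genes with the highest mean, the 2 with the smallest p and any called gene are named, and genes with 0 counts in every library as such, and other genes only as cell type markers or where said.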

Additional observations from a re-analysis of the deposited data

How the results depend on the processing

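The number of the 10 genes called was 0 under every alternative that kept the adjusted threshold of 0.05 (DESeq2, RLE and upper-quartile scaling, no filter, at least 10 counts in every tumour, no robust estimation, no acinar genes, the replicate block and each tumour left out), 0 at an adjusted p under 0.1 and 3 at an unadjusted p under 0.05. Over all genes the count of 0 became 111 with DESeq2, 44 with the replicate block and 1090 at an unadjusted p under 0.05, and over the 59 other genes it became 1 with DESeq2 and 3 at an unadjusted p under 0.05. The cause was not tested. DESeq2 gave no adjusted p for Fcer1a, Ms4a2 and Siglecf, so its result for the 10 genes covers only the others. The median log2 fold change of the 10 genes lay between −1.40 (without 4 °C replicate 2) and −0.41 (without 4 °C replicate 1) when single tumours were left out. With the replicate block it was −0.90, and that of Il5ra, 0.32, became 1.07. Same-numbered tumours share only a number, and their deviations correlated at −0.27 (replicate 1) and 0.25 (replicate 2) over genes.

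Directions turned only in 4 genes and only when a tumour was left out. Cpa3 (range −1.70 to 0.52 over the tumours left out) turned to 0.52 without 30 °C replicate 1 and 0.13 without 4 °C replicate 1, Epx (−0.49 to 0.023) to 0.023 without 30 °C replicate 2, Prg2 (−0.16 to 0.35) to −0.16 without 30 °C replicate 1 and −0.09 without 4 °C replicate 2, and Il5ra (−0.11 to 1.01) to −0.07 without 30 °C replicate 1 and −0.11 without 4 °C replicate 1. The count of 5 genes in which the tumours at 4 °C lay below the others ranged from 4 to 7 over its alternatives, which were added after seeing the data, while the share of all genes that did so ranged from 5.41% to 29.5%. With 3 tumours against 2 and as few as 6 counts of Fcer1a, differences could be missed, and no detection limit was computed. The lowest adjusted p of the edgeR test over all genes was 0.69.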

Other observations

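In the cluster of chromosome 14 that holds Mcpt8, adjacent protease genes differed in how their levels ran over the tumours. These genes were picked for their position. Ctsg, 14608 bases from Mcpt8 and typical of early neutrophils, had 3607, 1245 and 466 counts at 30 °C and 309 and 470 at 4 °C. Mcpt4, at 19853 bases, had 52, 13 and 25 counts at 30 °C and 30 and 74 at 4 °C, and Mcpt2, at 37524 bases, had 456, 6 and 85 at 30 °C and 49 and 350 at 4 °C. Mcpt8 itself had 113, 73 and 135 against 35 and 57 counts. Only in scaled CPM was it almost equal at 30 °C (6.01, 5.98 and 5.89, against 6.46, 4.42 and 6.64 without scaling factors). On the TMM scale it was lowest in 4 °C replicate 1 (1.74). Ctsg was lowest in 4 °C replicate 1 as well (15.3 CPM), but had 192, 102 and 20.3 CPM at 30 °C. Gzme, at 32353 bases, had 0 counts in every library.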
